A study of Oryza sativa Japonica Group with 64 samples.

Results

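Anthers of the rice mutant csa were compared with wild-type (WT) anthers under short days, with 4 csa libraries set against 4 WT libraries. These 8 libraries were all those of short-day anthers among 64 libraries of anthers and flag leaves, and were chosen by their labels. Plants of both genotypes were Oryza sativa ssp. japonica cultivar 9522 from paddy plots in Shanghai. Short-day plants of both genotypes were kept dark under lightproof film between 18:00 and 6:00, which left 12 h of light. The csa short-day group held 2 libraries collected at 16:00 and 2 collected at 04:00, and the WT short-day group was made in the same way. Anthers were taken at stage 12 of anther development. Long-day anthers of csa and of WT, 4 libraries each at the same 2 times, grew uncovered at a day length of about 14.5 h. They are used here to set the short-day difference beside the long-day one, and those of WT also to class genes by tissue. All 16 anther libraries entered the same fit, so long-day libraries also shaped the filter, the scaling and the spread behind short-day p-values. No source used here gives the kind of csa mutation, the number of plants pooled in a library or the number of csa lines. The labels call the 2 libraries of a group biological replicates but name no separate plants. The p-values thus measure only the spread between such libraries, estimated over all 8 groups of anthers.

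CSA (carbon starved anther) is an R2R3 MYB transcription factor best known for the supply of sugar to the anther, and the mutant is described as male sterile under short days. A rice anther holds developing pollen inside wall layers, of which the innermost, the tapetum, feeds the pollen and breaks down before pollen matures. Pollen filling also draws on water channels, cell wall enzymes, mineral transporters and hormones, among them gibberellin and auxin. These groups, with defence, cell division, gene silencing and floral identity genes, are described here, while genes of the clock, sugar, starch and tapetum are left aside.

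The 8 libraries held 18.51 M to 25.96 M counted reads, and 25203 of 55986 listed genes had enough counts to be tested. Log2 CPM (CPM being counts divided by the scaled library total in M) of replicates correlated across genes with Pearson r of 0.9776 to 0.9927. On the first principal component, with 58.6% of the variance, csa lay apart from WT. On the second, with 18.1%, the 16:00 libraries lay below the 04:00 libraries in csa and above them in WT. The clock gene LHY, which is expressed at the end of the night, nevertheless followed the time labels in both genotypes, with 104 and 108 CPM at 16:00 and 516 and 565 CPM at 04:00 in csa, against 46.4 and 42.7 CPM and 512 and 427 CPM in WT. CSA transcript was present in both genotypes without a call (edgeR adjusted p = 0.417), so that its level checks no label. Cell type markers were read as summed CPM. The 5 stamen genes summed to 3560 to 5330 CPM in csa and 2820 to 3650 CPM in WT, with none at 0. Without MADS16, 4 of them summed to 1470 to 1900 CPM in csa and 1420 to 1600 CPM in WT. The 6 tapetum genes summed to 1570 to 2860 CPM in csa and 3210 to 7020 CPM in WT. The 5 late pollen genes summed to 1.14 to 1.62 CPM in csa, with at most 1 gene at 0, against 25.7 to 146 CPM in WT. The 6 meiocyte genes summed to 71.7 to 75.7 CPM in csa and 88.1 to 123 CPM in WT, and 5 of them without MEL1 to 66.9 to 69.5 CPM in csa and 67.0 to 77.0 CPM in WT, so that most of the gap was MEL1. Carpel and ovule genes (4) summed to 52.6 to 99.1 CPM in csa and 33.6 to 76.0 CPM in WT. Genes of lemma, palea and lodicule (5) summed to 638 to 803 CPM in csa and 388 to 550 CPM in WT. Genes of leaf-like green tissue (8) summed to 1470 to 2170 CPM in csa and 421 to 1960 CPM in WT. Much of that sum was RBCS3, with a mean of 962 CPM in csa and 451 CPM in WT. LHCA1 was the only member with a lower mean in csa, at 93.6 CPM against 121 CPM in WT, and was not called.

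Nearly as many genes fell as rose in csa anthers, but the steep changes were mostly falls. They lay mostly in genes that WT anthers express more than leaves. With edgeR's quasi-likelihood test at an adjusted p below 0.05, 6510 genes were higher in csa (25.8%) and 5457 were lower (21.7%), out of 25203 tested, so that 47.5% were called. The median log2 fold change over all tested genes was 0.08. Among called genes that changed at least 2-fold, 1248 rose (4.95% of tested genes) and 2441 fell (9.69%). At least 16-fold changes were counted for 42 rises and 600 falls. In these bulk samples, fewer cells of a type and less RNA per cell cannot be told apart.

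Genes were then classed by tissue from long-day WT libraries, which are in neither group of the short-day comparison, though the anther ones share its fit. Anther-leaning genes had a mean CPM at least 4 times that of flag leaves, for leaf-leaning genes the reverse held, and shared genes lay between. The anther level came from WT alone, so genes high only in csa anthers could not be anther-leaning. The anther-leaning class thus leaned to falls by its definition, and the leaf-leaning class to rises. Of 6949 anther-leaning genes, 21.8% rose in csa and 36.9% fell, and 1850 of them fell at least 2-fold. Of 2429 leaf-leaning genes, 45.0% rose and 3.91% fell. Of 15825 shared genes, 24.7% were higher and 17.7% lower in csa. The median log2 fold change was −0.21 for anther-leaning, 0.07 for shared and 0.52 for leaf-leaning genes. Of the counts by class, the rises of shared genes moved by over 1.5 times with 1 library left out, from 3903 to 2550 without WT 16:00 replicate 1. The leaf-like marker sum and the late pollen sum moved with these classes, and their part in the class counts was not tested. Calls were spread over the genome, with a share called between 43.9% on chromosome 11 and 49.2% on chromosome 5.

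**Figure D1:**
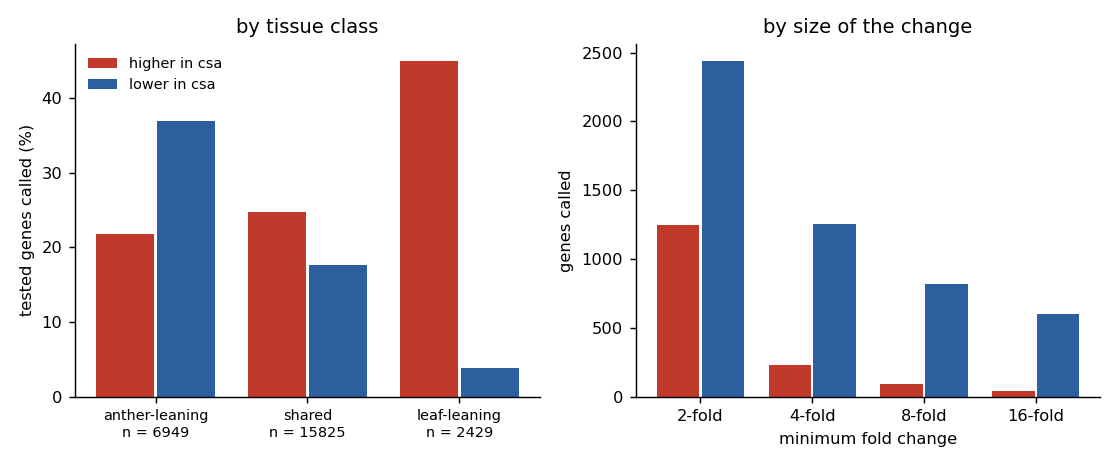
Left, percentage of tested genes called higher (red) or lower (blue) in csa than in WT short-day anthers, for genes classed by their level in long-day WT anthers against flag leaves; right, number of genes called at each minimum fold change. Falls outnumber rises in anther-leaning genes and at every fold size shown, and rises outnumber falls in leaf-leaning genes.

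Among genes without a symbol, a few were measured in 1 genotype and almost absent in the other. Values per library are given throughout as 2 libraries at 16:00 followed by 2 at 04:00. LOC_Os05g13850 had 0 counts in every csa library, against 23.4, 74.7, 47.3 and 0.526 CPM in WT, and was at least 1150-fold lower in csa, with 3 counts over the csa group as the floor. The WT 04:00 replicate 2 library was itself near 0, and the call was lost without WT 04:00 replicate 1. LOC_Os06g28150 also had 0 counts in csa, against 21.2, 38.4, 31.9 and 8.99 CPM in WT, at least 776-fold lower in csa. In the other direction, LOC_Os01g05510 had 9.8, 15.5, 10.5 and 12.3 CPM in csa, against 0, 0, 0.0371 and 0 CPM in WT, which is 1076 counts against 1 and a ratio of 1040 (95% exact interval 186 to 41000, counting error only). LOC_Os01g05530 had 19.0, 20.3, 13.6 and 12.4 CPM in csa, against 0, 0, 0 and 0.263 CPM in WT, a ratio of 280 (95% exact interval 120 to 863). The 4 genes were chosen among those without overlap between the genotypes, so the lack of overlap is no separate result. Identifiers of an earlier report on these data had been left out before the choice. Both genes that rose carry identifiers of chromosome 1, as CSA does.

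For named pathways, 26 gene lists were read, of which 381 genes with a checked name were tested. Of these, 155 rose in csa, 83 fell and 143 were not called, and their median log2 fold change was 0.25, beside 0.08 over all tested genes. In 67 of the 381 all csa libraries lay above all WT libraries and in 59 below, which over all tested genes was so for 12.4% and 14.2%. Most changes were small: against a minimum fold of 1.5, 32 members rose and 37 fell. Lists whose called members all rose were photosystem and light harvesting, phenylpropanoids, cellulose and callose synthases, defence, brassinosteroid and strigolactone, ethylene and stress transcription factors. Among them, ethylene, with 3 of 9 higher, and stress transcription factors, with 4 of 12, lay nearest the 25.8% of all tested genes. In the cell cycle list 6 of 16 fell and none rose. Meiosis, with 2 of 8 lower, and fermentation, with 1 of 7, also had no rise, but their falls were near or under the 21.7% of all tested genes.

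**Figure D2:**
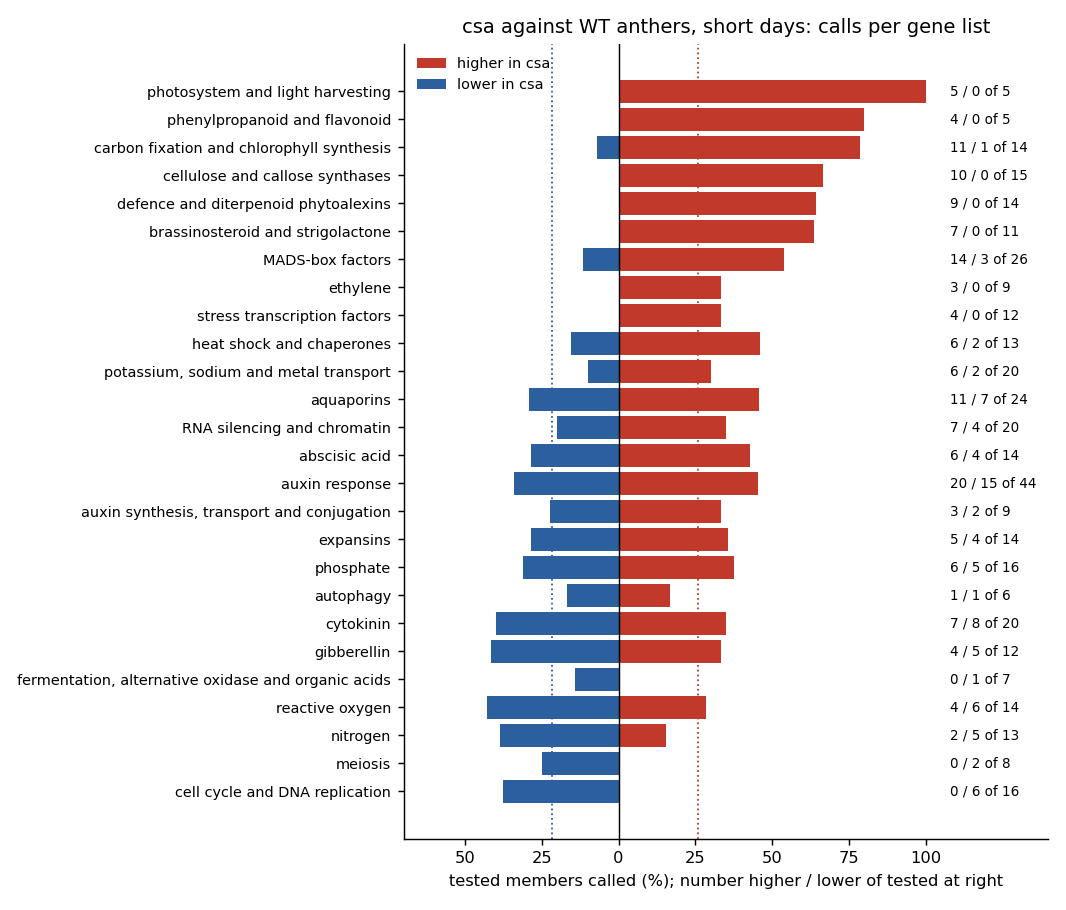
Percentage of the tested members of each gene list called higher (red, right) or lower (blue, left) in csa than in WT short-day anthers, with the numbers higher / lower of tested at the right; dotted lines mark the shares over all tested genes, 25.8% higher and 21.7% lower. Green-tissue, phenylpropanoid, wall-synthesis and defence lists lie to the right, and cell cycle, meiosis and fermentation only to the left.

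Gibberellin genes moved in both directions. Named enzymes that make and break the hormone fell in csa, while the receptor rose. Of 12 tested genes 4 rose and 5 fell, and 4 of the falls were at least 2-fold. The rises numbered 2 without WT 16:00 replicate 2. KAO (LOC_Os06g02019), which oxidises ent-kaurenoic acid on the way to gibberellin, had 21.7, 24.2, 26.1 and 31.9 CPM in csa, against 200, 353, 184 and 134 CPM in WT. Every csa library lay far below every WT library (log2 fold change −3.02 ± 0.40 SE, edgeR adjusted p = 0.000157). CPS1 (LOC_Os02g17780), the cyclase at the entry of the pathway, had 15.1, 20.3, 13.8 and 15.6 CPM in csa, against 77.5, 122, 95.2 and 64.3 CPM in WT, again without overlap (−2.47 ± 0.36, adjusted p = 0.000273). EUI1 (LOC_Os05g40384), a cytochrome P450 that inactivates gibberellin, had 21.7, 19.3, 30.5 and 28 CPM in csa, against 87.2, 130, 32.0 and 47.2 CPM in WT (−1.42 ± 0.15, adjusted p = 4.03e-05). The groups did not touch, though the WT libraries at 04:00 came close to csa. GID1 (LOC_Os05g33730), the soluble gibberellin receptor, had 46.8, 39.9, 85.4 and 82.6 CPM in csa, against 32.8, 40.4, 19.3 and 24.7 CPM in WT (1.09 ± 0.11, adjusted p = 3.44e-05). The genotypes overlapped at 16:00 and stood apart at 04:00.

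Auxin response genes were called more often than not, in both directions. Of 44 tested, 20 rose and 15 fell, mostly by less than 2-fold (1 rise and 3 falls reached it). Auxin response factors, which bind the promoters of auxin-regulated genes, held opposite examples. ARF1 (LOC_Os01g13520) had 123, 140, 131 and 120 CPM in csa, against 201, 210, 259 and 293 CPM in WT, and fell by 0.89 ± 0.08 on the log2 scale (SE, edgeR adjusted p = 1.08e-05). ARF6 (LOC_Os02g06910) had 134, 105, 153 and 124 CPM in csa, against 64.2, 66.4, 72.4 and 72.7 CPM in WT (0.90 ± 0.12, adjusted p = 0.000128). Neither gene overlapped between genotypes. Of 9 genes of auxin synthesis, transport and conjugation, 3 rose and 2 fell. The fall of GH3.8 (LOC_Os07g40290), which conjugates auxin to amino acids, was large but uneven, since csa libraries had 63.7, 78.8, 112 and 78.0 CPM and WT libraries 186, 632, 459 and 108 CPM. Its genotypes overlapped narrowly (−2.05 ± 0.46, adjusted p = 0.00364).

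Cytokinin and abscisic acid genes also moved both ways. Of 20 cytokinin genes 7 rose and 8 fell. RR24 (LOC_Os02g08500), a type-B response regulator that activates cytokinin-responsive genes, had 201, 224, 232 and 237 CPM in csa, against 105, 105, 165 and 149 CPM in WT (log2 fold change 0.80 ± 0.08 SE, edgeR adjusted p = 2.92e-05). RR4 (LOC_Os01g72330), a type-A regulator that dampens the response, had 27.9, 44.7, 35.9 and 39.4 CPM in csa, against 58.8, 50.9, 107 and 99.1 CPM in WT (−1.02 ± 0.14, adjusted p = 0.000191). The genotypes stood apart in both. Of 14 abscisic acid genes 6 rose and 4 fell. BZIP23 (LOC_Os02g52780), a transcription factor of the abscisic acid response, had 47.3, 37.7, 42.1 and 43.0 CPM in csa, against 25.3, 21.9, 13.2 and 16.2 CPM in WT (1.19 ± 0.11, adjusted p = 1.79e-05). LEA3 (LOC_Os05g46480), a late embryogenesis abundant protein induced by abscisic acid and drought, went the other way, with 0.619, 0.758, 3.1 and 2.51 CPM in csa, against 11, 7.92, 8.82 and 13.0 CPM in WT (−2.85 ± 0.31, adjusted p = 3.74e-05). In neither gene did a csa library reach the WT range.

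Of 11 genes of brassinosteroid and strigolactone synthesis and response, 7 rose and none fell, with log2 fold changes of the called ones between 0.38 and 1.17. The largest of these, D2 (LOC_Os01g10040), a cytochrome P450 of brassinosteroid synthesis, had 19.4, 19.8, 30.7 and 27.3 CPM in csa, against 9.66, 16.6, 10.2 and 6.83 CPM in WT (1.17 ± 0.18 SE, edgeR adjusted p = 0.000338). Every csa library was above every WT library. Of 9 ethylene genes 3 rose, by 0.30 to 0.43 on the log2 scale, and none fell. The ethylene rises numbered 1 without WT 16:00 replicate 1, without WT 16:00 replicate 2, or with only the 8 short-day libraries in the fit.

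Water channel genes moved in both directions, with the larger changes mostly falls. Of 24 tested aquaporins 11 rose and 7 fell, but 6 of the falls and 2 of the rises were at least 2-fold. All csa libraries lay below all WT libraries in 5 of 24 and above in none, beside 14.2% and 12.4% over all tested genes. PIP2-7 (LOC_Os09g36930), a plasma membrane aquaporin, had 123, 94.3, 143 and 127 CPM in csa, against 902, 950, 260 and 444 CPM in WT (log2 fold change −2.24 ± 0.17 SE, edgeR adjusted p = 4.69e-06). TIP1-2 (LOC_Os01g74450), an aquaporin of the tonoplast, had 15.2, 23.5, 25.1 and 29.8 CPM in csa, against 204, 274, 94.1 and 75.3 CPM in WT (−2.62 ± 0.36, adjusted p = 0.000176). Both genes were low in all csa libraries and highest in WT at 16:00. The aquaporin rises numbered 5 without WT 16:00 replicate 1, and 7 without WT 16:00 replicate 2, csa 16:00 replicate 1, or, in long days, WT 04:00 replicate 1, WT 04:00 replicate 2 or csa 04:00 replicate 1. The falls numbered 4 without csa 04:00 replicate 2.

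Mineral transport and nitrogen genes moved in both directions, with single genes far apart between the genotypes. Of 13 nitrogen genes 2 rose and 5 fell; the rises numbered 1 with only the short-day libraries or without any of WT 16:00 replicate 1, WT 04:00 replicates 1 and 2, csa 16:00 replicate 1, csa 04:00 replicate 1 and long-day csa 04:00 replicate 1. GS1;3 (LOC_Os03g50490), a cytosolic glutamine synthetase, had 83.2, 88.0, 83.5 and 75.3 CPM in csa, against 376, 315, 309 and 588 CPM in WT (−2.26 ± 0.22 SE on the log2 scale, edgeR adjusted p = 2.09e-05). The csa libraries were nearly equal to each other and far below WT. Of 16 phosphate genes 6 rose and 5 fell. The phosphate transporter gene PHT1-7 (LOC_Os03g04360) had 48.6, 55.6, 63.5 and 57.4 CPM in csa, against 235, 289, 101 and 154 CPM in WT (−1.70 ± 0.16, adjusted p = 1.45e-05), without overlap. Of 20 genes of potassium, sodium and metal transport 6 rose and 2 fell. Those rises were near the 25.8% of all tested genes and those falls under the 21.7%. NRAMP1 (LOC_Os07g15460), a metal transporter, had 15.5, 21.5, 14.1 and 18.0 CPM in csa, against 38.8, 50.8, 47.2 and 42.6 CPM in WT (−1.38 ± 0.24, adjusted p = 0.000779). HAK1 (LOC_Os04g32920), a high-affinity potassium transporter, had 197, 213, 348 and 349 CPM in csa, against 100, 129, 101 and 100 CPM in WT (1.32 ± 0.13, adjusted p = 2.02e-05). The genotypes stood apart in both metal and potassium transporter genes, in opposite directions.

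Cellulose and callose synthase genes gave small rises, while a few expansin genes fell steeply. Of 15 cellulose and callose synthase genes 10 rose and none fell, all by less than 2-fold (0.42 to 0.84 on the log2 scale). CESA3 (LOC_Os07g24190), a cellulose synthase, had 578, 631, 529 and 478 CPM in csa, against 282, 269, 379 and 327 CPM in WT (0.82 ± 0.11 SE, edgeR adjusted p = 0.00016), without overlap. These rises depended on single libraries, and numbered 5 without WT 16:00 replicate 2 or csa 04:00 replicate 1 and 6 without WT 16:00 replicate 1 or csa 16:00 replicate 1. Of 14 expansin genes, whose products loosen cell walls, 5 rose and 4 fell, and 3 of the falls were at least 2-fold, while the list's median log2 fold change was 0.41. The beta-expansin gene EXPB9 (LOC_Os10g40090) had 0.825, 1.30, 1.32 and 2.46 CPM in csa, against 460, 958, 739 and 191 CPM in WT (log2 fold change −8.66 ± 1.06, adjusted p = 8.82e-05). Beta-expansins of grass pollen have near-identical copies, so reads may be split between copies and the value of this single gene is uncertain. EXPB2 (LOC_Os10g40710), another beta-expansin gene, had 0.876, 0.673, 3.29 and 2.26 CPM in csa, against 9.60, 35.3, 43.4 and 20.3 CPM in WT (−4.19 ± 0.47, adjusted p = 5.02e-05). In both, every csa library was below every WT library. The late pollen marker sum was also lower in every csa library than in every WT library, and its part in these falls was not tested.

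Of 5 phenylpropanoid and flavonoid genes 4 rose and none fell. CHS1 (LOC_Os11g32650), chalcone synthase at the entry of flavonoid synthesis, had 114, 89.4, 226 and 194 CPM in csa, against 49.5, 66.0, 74.8 and 67.4 CPM in WT (log2 fold change 1.19 ± 0.15 SE, edgeR adjusted p = 9.43e-05). All csa libraries exceeded all WT libraries. The count of rises was 1 without WT 16:00 replicate 2 or csa 04:00 replicate 1, and 2 without WT 16:00 replicate 1, WT 04:00 replicate 1, WT 04:00 replicate 2 or csa 16:00 replicate 1.

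Redox enzymes and chaperones gave mixed groups with a few large members. Of 14 genes of reactive oxygen metabolism 4 rose and 6 fell; the rises numbered 2 without a filter on low counts, without WT 16:00 replicate 1 or without WT 04:00 replicate 2. APX1 (LOC_Os03g17690), a cytosolic ascorbate peroxidase that removes hydrogen peroxide, had 405, 381, 413 and 408 CPM in csa, against 1060, 1230, 673 and 748 CPM in WT (−1.17 ± 0.12 SE on the log2 scale, edgeR adjusted p = 2.33e-05). Levels in csa were almost constant and below every WT library. Of 13 heat shock and chaperone genes 6 rose and 2 fell, and with only the short-day libraries in the fit 3 rose. Both that fell did so at least 2-fold. BIP1 (LOC_Os02g02410), a chaperone of the endoplasmic reticulum, had 470, 510, 567 and 522 CPM in csa, against 1160, 1250, 988 and 1070 CPM in WT (−1.11 ± 0.12, adjusted p = 5.25e-05). HSP16.9B (LOC_Os01g04380), a small heat shock protein, had 0.258, 0.210, 0.605 and 0.667 CPM in csa, against 26.3, 24.1, 7.04 and 6.78 CPM in WT (−5.08 ± 0.32, adjusted p = 1.4e-06). The genotypes were far apart in both chaperone genes. HSP16.9A (LOC_Os01g04370), next to HSP16.9B by its identifier, matched the same reference gene. Reads may thus be split between these copies, and the value of HSP16.9B alone is uncertain. HSP16.9A was not among the 2 falls. Autophagy genes gave 1 rise and 1 fall among 6 tested, and in fermentation and organic acid genes 1 of 7 fell and none rose. These single calls moved with the setting: without a filter no autophagy gene rose and 2 fell, with DESeq2 3 autophagy genes fell, and without a filter 4 fermentation genes fell. Autophagy falls numbered 2 without WT 04:00 replicate 1 or csa 16:00 replicate 1. Fermentation falls numbered 2 or 3 without WT 16:00 replicate 1, WT 04:00 replicate 1, csa 04:00 replicate 2 or, in long days, WT 16:00 replicate 1, WT 16:00 replicate 2 or csa 04:00 replicate 1, and 2 with only the short-day libraries.

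Most defence genes tested rose in csa anthers. Of 14 tested, which include the diterpene cyclases of the rice phytoalexins, 9 rose and none fell, 7 of them at least 2-fold, and the list had a median log2 fold change of 1.52. Over all tested genes 25.8% rose. Rises were called for 4 of 14 at 16:00 (list median 1.04) and for 9 of 14 at 04:00 (2.41). In 3 of 14 all csa libraries lay above all WT libraries, beside 12.4% over all tested genes. NPR1 (LOC_Os01g09800), the co-activator of salicylic acid signalling, had 99.1, 75.8, 82.2 and 87.8 CPM in csa, against 25.5, 32.8, 40.0 and 34.1 CPM in WT (1.39 ± 0.12 SE, edgeR adjusted p = 1.28e-05). CPS4 (LOC_Os04g09900), the cyclase that leads to the momilactone phytoalexins, was low in both genotypes, with 1.44, 2.4, 2.12 and 2.67 CPM in csa, against 0.162, 0.0937, 0.185 and 0.158 CPM in WT (3.81 ± 0.35, adjusted p = 1.36e-05). Neither gene overlapped between genotypes. Of 12 stress transcription factors 4 rose and none fell, with log2 fold changes of 0.50 to 1.1; 1 fell without csa 16:00 replicate 1.

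Some genes of dividing and germ cells were lower in csa. Of 16 cell cycle and DNA replication genes none rose and 6 fell, by 0.54 to 1.03 on the log2 scale. These were mainly falls at 04:00, called for 8 of 16 genes with a list median of −0.78. At 16:00 1 of 16 fell and the list median was 0.16. Against a minimum fold of 1.5, 0 fell over both times. CDKB2-1 (LOC_Os08g40170), a mitotic cyclin-dependent kinase, had 18.8, 21.4, 13.2 and 12.5 CPM in csa, against 33.9, 21.9, 29.7 and 31.3 CPM in WT (log2 fold change −0.86 ± 0.19 SE, edgeR adjusted p = 0.00349), with the highest csa library just below the lowest WT library. Of 8 meiosis genes none rose and 2 fell, both at least 2-fold. The larger fall, MEL1 (LOC_Os03g58600), an Argonaute protein of rice germ cells, had 4.12, 4.84, 7.07 and 6.20 CPM in csa, against 21.2, 47.4, 52.9 and 34.4 CPM in WT (−2.82 ± 0.27, adjusted p = 2.02e-05). Both genes that fell are themselves among the 6 meiocyte markers, and the marker sum without MEL1 overlapped between the genotypes. Of 20 RNA silencing and chromatin genes 7 rose and 4 fell, beside 25.8% and 21.7% of all tested genes. MET1-1 (LOC_Os03g58400), a maintenance DNA methyltransferase, had 1.44, 1.89, 1.32 and 1.44 CPM in csa, against 5.99, 5.25, 4.11 and 6.26 CPM in WT (−1.82 ± 0.22, adjusted p = 9.22e-05), without overlap. The silencing and chromatin rises numbered 3 without WT 16:00 replicate 2, and 4 without a filter on low counts or without WT 16:00 replicate 1, WT 04:00 replicate 2, csa 16:00 replicate 2, csa 04:00 replicate 2 or, in long days, WT 04:00 replicate 1, WT 04:00 replicate 2 or csa 04:00 replicate 1.

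Many MADS-box and green-tissue genes rose. Of 26 genes of the MADS-box family, which holds floral organ identity factors and others such as those of the SVP group, 14 rose and 3 fell, and no rise reached 2-fold. All 5 markers of lemma, palea and lodicule are MADS-box genes among these 14 rises, so their sum is no separate measure. The 5 stamen markers are members of this list too, and 2 of them rose. MADS16 (LOC_Os06g49840), the B-class factor of stamens and lodicules, had 2170, 2080, 3360 and 3490 CPM in csa, against 1830, 2060, 1400 and 1500 CPM in WT (0.68 ± 0.08 SE on the log2 scale, edgeR adjusted p = 7.16e-05). The csa libraries lay above WT, narrowly at 16:00. MADS47 (LOC_Os03g08754), a factor of the SVP group, had 12.7, 18.8, 12.4 and 16.2 CPM in csa, against 53.4, 53.9, 51.2 and 58.3 CPM in WT (−1.85 ± 0.20, adjusted p = 3.6e-05), well apart. Of 29 genes written for the photosystem and light harvesting list, 24 had no checked name and were left out. The 5 that were kept all rose, and of 14 genes of carbon fixation and chlorophyll synthesis 11 rose and 1 fell. Without WT 16:00 replicate 1 the rises numbered 3 and 7. These were mainly rises at 04:00, called for 5 of 5 and 10 of 14 genes, against 1 of 5 and 3 of 14 at 16:00. The time difference was negative and called in 4 of the 5 photosystem genes, and in 2 without WT 16:00 replicate 2, WT 04:00 replicate 2, csa 16:00 replicate 2 or csa 04:00 replicate 1. FD1 (LOC_Os08g01380), a ferredoxin that carries electrons from photosystem I, had 174, 214, 250 and 212 CPM in csa, against 91.8, 123, 105 and 77.0 CPM in WT (1.09 ± 0.16, adjusted p = 0.000274). CAB2R (LOC_Os01g41710), a chlorophyll-binding protein of the light-harvesting antenna, followed the time of day in both genotypes, with 1140, 1350, 191 and 139 CPM in csa, against 725, 975, 48.7 and 36.4 CPM in WT (1.25 ± 0.23, adjusted p = 0.00116). At each time its csa libraries were above WT, though its rise was called at 04:00 (1.96 ± 0.34, adjusted p = 0.00108) and not at 16:00 (0.55 ± 0.32, adjusted p = 0.193), and for FD1 no csa library came down to the WT range. The leaf-like marker sum was higher in csa by its median, at 1760 CPM against 888 CPM in WT, with 1500 to 2030 CPM in csa against 421 to 517 CPM in WT at 04:00 and 1470 to 2170 CPM in csa against 1260 to 1960 CPM in WT at 16:00. Its largest member was RBCS3, and its member PSBQ was lower in csa at 16:00 (−1.0 ± 0.30, adjusted p = 0.0178). The part of this sum in these rises was not tested.

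**Figure D3:**
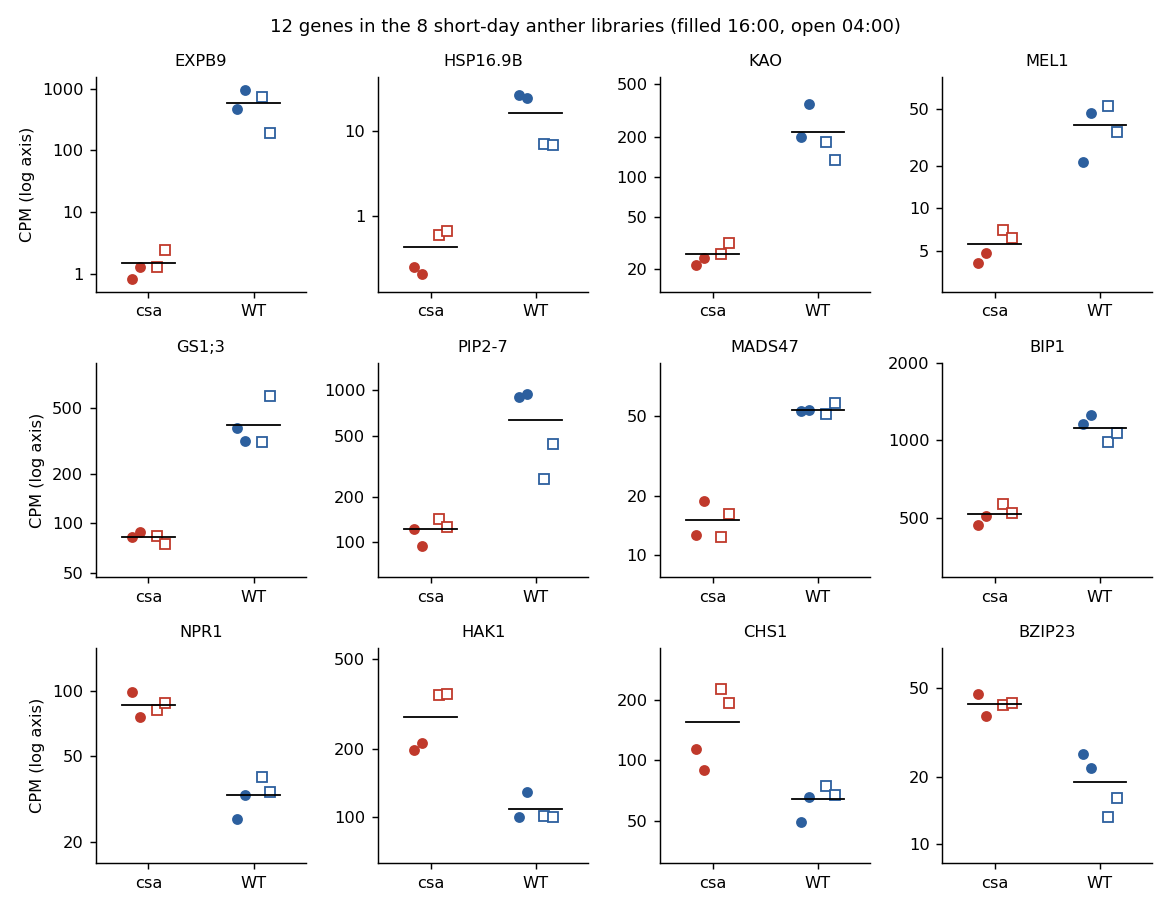
CPM (log axis) of 12 genes in the 4 csa and 4 WT short-day anther libraries, with filled circles for 16:00, open squares for 04:00 and a line at the mean of 4. In all 12 panels the csa points lie wholly below or wholly above the WT points, for example 0.825 to 2.46 CPM in csa against 191 to 958 CPM in WT for EXPB9. The 12 genes come from those named for low p in this same comparison, so their separation is not independent of the choice. Over all tested genes, csa lay wholly above WT in 12.4% and wholly below in 14.2%.

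The genotype difference was often not the same at 16:00 and at 04:00. At 16:00, 5653 genes were higher in csa (22.4%) and 4908 lower (19.5%). At 04:00, 5251 were higher (20.8%) and 5207 lower (20.7%). A change in the same direction was called at both times for 1228 rises and 2095 falls. Opposite changes were called for 767 genes that rose at 16:00 and fell at 04:00, and for 718 that fell at 16:00 and rose at 04:00. The difference between the times was itself called for 34.9% of tested genes, positive (csa relatively higher at 16:00) for 4634 genes (18.4%) and negative for 4157 (16.5%). Of these called genes, 4300 had no call over both times together. With 1 library left out, rises at 16:00 numbered 2885 without WT 16:00 replicate 2 and 3172 without WT 16:00 replicate 1. Rises at 04:00 numbered 3100 without csa 04:00 replicate 1 and 3414 without WT 04:00 replicate 1, and falls at 04:00 numbered 2599 without csa 04:00 replicate 1. Positive time differences numbered 2733 without WT 16:00 replicate 2 and 2991 without WT 04:00 replicate 1.

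Aquaporins had a one-sided time pattern. At 16:00 none of 24 rose in csa and 7 fell, whereas at 04:00 13 rose and 3 fell. The time difference was negative and called for 17 of 24 and positive for none, with log2 values between −3.42 and −0.93. In WT the mean was higher at 16:00 than at 04:00 for 87.5% of the aquaporins, against 20.8% in csa, while over all tested genes the shares were 52.2% in csa and 50.5% in WT. SIP1-1 (LOC_Os01g08660), a small basic aquaporin, had 53.5, 54.2, 90.0 and 76.7 CPM in csa, against 139, 120, 45.5 and 60.8 CPM in WT. It was lower in csa at 16:00 and higher at 04:00, and the time difference was −1.92 ± 0.21 on the log2 scale (SE, edgeR adjusted p = 0.000172). TIP4-1 (LOC_Os05g14240), a tonoplast aquaporin, had 115, 123, 38.9 and 37.3 CPM in csa, against 152, 142, 18.9 and 18.9 CPM in WT, with a smaller swing between the times in csa (−1.32 ± 0.17, adjusted p = 0.000369). For PIP2-7 the time difference was −1.71 ± 0.33 (adjusted p = 0.0024). The number of negative time differences was 11 without WT 04:00 replicate 1 and 10 without csa 16:00 replicate 2 or csa 04:00 replicate 1.

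In the gibberellin list the time difference was negative and called in 6 of 12 genes and positive in none, while other hormone lists were mixed. It was positive in 5 and negative in 7 of 44 auxin response genes, positive in 5 and negative in 4 of 20 cytokinin genes, positive in 2 and negative in 4 of 11 brassinosteroid and strigolactone genes, and positive in 1 and negative in none of 9 ethylene genes. SLR1 (LOC_Os03g49990), the DELLA repressor of the gibberellin response, had 104, 83.4, 187 and 147 CPM in csa, against 120, 138, 56.3 and 61.3 CPM in WT. It was lower in csa at 16:00 (log2 fold change −0.46 ± 0.15 SE, edgeR adjusted p = 0.0326) and higher at 04:00 (1.51 ± 0.16, adjusted p = 7.5e-05). The time difference was −1.69 ± 0.23 for GID1 and −1.97 ± 0.30 for EUI1 (adjusted p = 0.000461 and 0.000875). IAA1 (LOC_Os01g08320), an Aux/IAA repressor of auxin response, had 20.4, 13.3, 60.2 and 57.9 CPM in csa, against 54.7, 95.6, 36.2 and 43.8 CPM in WT, with a time difference of −2.72 ± 0.38 (adjusted p = 0.000538). The strigolactone receptor gene D14 (LOC_Os03g10620) had 34.0, 24.9, 68.8 and 61.3 CPM in csa, against 32.4, 40.1, 12.9 and 13.8 CPM in WT (time difference −2.59 ± 0.29, adjusted p = 0.000197). In both genes csa was higher at 04:00 than at 16:00 and WT higher at 16:00 than at 04:00.

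Negative time differences were also called for single genes of other groups. AMT1-1 (LOC_Os04g43070), an ammonium transporter, had 33.4, 30.8, 69.7 and 67.7 CPM in csa, against 131, 150, 41.9 and 62.6 CPM in WT (time difference −2.53 ± 0.24 SE on the log2 scale, edgeR adjusted p = 8.86e-05). CATA (LOC_Os02g02400), a catalase, had 480, 320, 190 and 178 CPM in csa, against 332, 431, 44.1 and 39.4 CPM in WT, so that the genotypes overlapped at 16:00 and stood apart at 04:00 (−2.07 ± 0.31, adjusted p = 0.000756). NAC6 (LOC_Os01g66120), a stress transcription factor, had 27.4, 24.8, 38.9 and 44.3 CPM in csa, against 26.2, 24.5, 10.1 and 8.36 CPM in WT (−2.12 ± 0.21, adjusted p = 0.000109). PR10A (LOC_Os12g36880), a pathogenesis-related protein, had 66.8, 43.4, 110 and 98.8 CPM in csa, against 57.8, 78.5, 15.9 and 16.1 CPM in WT (−3.01 ± 0.41, adjusted p = 0.000477). Both stress genes overlapped at 16:00 and were higher in csa at 04:00. The time difference was −3.29 ± 0.69 for HSP16.9B (adjusted p = 0.00388) and −1.12 ± 0.16 for MADS16 (adjusted p = 0.000642). Among 13 heat shock and chaperone genes it was negative in 6 and positive in 1, and the single positive count was 0 without a filter on low counts or without WT 16:00 replicate 1, WT 16:00 replicate 2 or WT 04:00 replicate 1.

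Cell cycle and wall synthesis genes had the opposite time pattern. The csa mean was higher at 16:00 than at 04:00 for 15 of 16 cell cycle genes, against 3 of 16 in WT, and the time difference was positive and called for 5 and negative for none (0.58 to 1.63 on the log2 scale). This count depended on single libraries: it was 0 without WT 16:00 replicate 2 or csa 04:00 replicate 1, 1 without csa 16:00 replicate 2 and 2 without WT 04:00 replicate 2. Of 15 cellulose and callose synthase genes 6 had a positive time difference and none a negative one. The 6 became 1 without WT 16:00 replicate 2, 2 without WT 04:00 replicate 1, csa 16:00 replicate 2 or csa 04:00 replicate 2, and 3 without csa 04:00 replicate 1 or, in long days, WT 04:00 replicate 1 or 2. Without WT 04:00 replicate 2, 1 negative difference was called, and without a filter on low counts 2. CESA5 (LOC_Os03g62090), a cellulose synthase, had 191, 275, 144 and 151 CPM in csa, against 84.4, 67.8, 184 and 122 CPM in WT, higher in csa at 16:00 and overlapping at 04:00 (time difference 1.67 ± 0.39 SE, edgeR adjusted p = 0.00681). MER3 (LOC_Os02g40450), a helicase of meiotic crossovers, had 9.64, 12.6, 5.18 and 5.79 CPM in csa, against 5.94, 6.37, 10.6 and 7.99 CPM in WT. Over both times it was not called (log2 fold change 0.04 ± 0.13, adjusted p = 0.803), but it was higher in csa at 16:00 and lower at 04:00, with a time difference of 1.62 ± 0.27 (adjusted p = 0.00115).

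**Figure D4:**
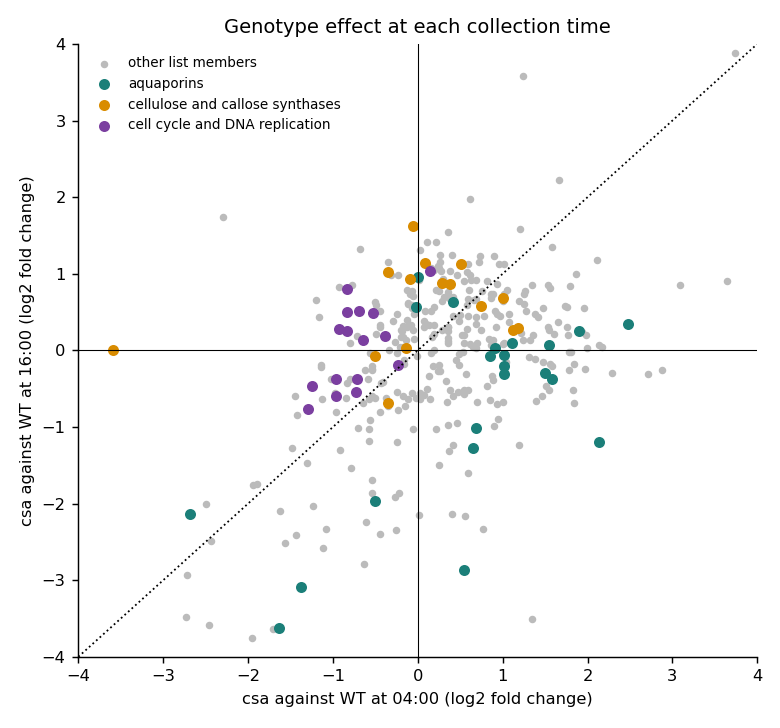
Log2 fold change of csa over WT short-day anthers at 16:00 (vertical axis) against that at 04:00 (horizontal axis) for the tested list members, with 3 lists coloured; points on the dotted diagonal changed equally at both times, and 11 members lie outside the axes. Aquaporins lie mostly below the diagonal and cell cycle genes mostly above it.

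The same genotype difference was measured in long-day anthers, in 8 other libraries, where 4722 genes were higher in csa (18.7%) and 4155 lower (16.5%), so that 35.2% were called. Both photoperiods shared 2483 falls, which were 45.5% of the short-day falls and 59.8% of the long-day falls, and 2537 rises, which were 39.0% and 53.7%. Opposite calls were few, with 161 genes lower in csa in short days and higher in long days and 211 the other way. The difference between the photoperiods was itself called for 17.8% of tested genes, positive (csa relatively higher in short days) for 2054 (8.15%) and negative for 2435 (9.66%). These counts leaned on single libraries. Positive differences numbered 1016 without long-day csa 04:00 replicate 1, 1034 without long-day WT 04:00 replicate 1, 1114 without csa 04:00 replicate 1, 1159 without WT 16:00 replicate 1, 1264 without WT 04:00 replicate 2 and 1317 without csa 04:00 replicate 2 of short days. Negative differences numbered 1138, 1277, 1366 and 1364 without the first 4 of these libraries in turn.

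Defence genes differed between the photoperiods in 1 direction. The photoperiod difference was positive and called for 11 of 14 and negative for none, with a median of 2.65 on the log2 scale, and in long days 1 of the 14 rose in csa and 4 fell. Without csa 16:00 replicate 2 of short days, 7 were called. CPS4 averaged 2.16 ± 0.526 CPM in csa and 0.150 ± 0.0392 CPM in WT under short days (SD, n = 4), and 3.09 ± 2.25 CPM in csa and 4.92 ± 4.09 CPM in WT under long days. Its photoperiod difference was 4.36 ± 0.43 (SE, edgeR adjusted p = 0.00265), and the group that stood apart was short-day WT. NPR1 averaged 86.2 ± 9.92 CPM in csa and 33.1 ± 5.95 CPM in WT under short days, and 48.1 ± 3.86 CPM in csa and 46.1 ± 6.63 CPM in WT under long days (difference 1.33 ± 0.17, adjusted p = 0.00341). For PR10A the difference was 1.81 ± 0.28 (adjusted p = 0.0052). In long days PR10A was lower in csa, with 106 ± 71.4 CPM against 144 ± 77.4 CPM in WT (log2 fold change −0.61 ± 0.20, adjusted p = 0.0329).

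Cell cycle genes differed in the other direction, with a called negative photoperiod difference in 6 of 16 and a positive one in none; without a filter on low counts it was 11. In long days 6 of the 16 rose in csa and none fell. CDKB2-1 averaged 16.5 ± 4.33 CPM in csa and 29.2 ± 5.19 CPM in WT under short days (SD, n = 4), and 21.0 ± 7.59 CPM in csa and 13.1 ± 3.69 CPM in WT under long days. The photoperiod difference was −1.49 ± 0.27 on the log2 scale (SE, edgeR adjusted p = 0.00702).

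Among the other groups, D2 averaged 24.3 ± 5.6 CPM in csa and 10.8 ± 4.14 CPM in WT under short days, and 15.1 ± 2.29 CPM in csa and 19.0 ± 1.43 CPM in WT under long days (SD, n = 4; photoperiod difference 1.5 ± 0.25 SE, edgeR adjusted p = 0.00564). HAK1 averaged 277 ± 83.3 CPM in csa and 108 ± 14.5 CPM in WT under short days, and 157 ± 44.6 CPM in csa and 129 ± 42.5 CPM in WT under long days (1.02 ± 0.18, adjusted p = 0.00636). Both genes were called higher in csa in short days. In long days neither was called higher, and the mean of D2 was lower in csa than in WT. CATA was higher in csa in short days and lower in long days, where it averaged 163 ± 57.3 CPM in csa and 235 ± 82.2 CPM in WT (photoperiod difference 1.63 ± 0.22, adjusted p = 0.0037). EXPB9 averaged 173 ± 144 CPM in csa and 1290 ± 410 CPM in WT under long days, so that it was lower in csa in both photoperiods, with a photoperiod difference of −5.66 ± 1.18 (adjusted p = 0.0105). Photoperiod differences near 0 were measured for other genes. HSP16.9B had 0.517 ± 0.329 CPM in csa and 17.6 ± 6.08 CPM in WT under long days, and MEL1 16.0 ± 5.47 CPM in csa and 117 ± 13.7 CPM in WT. Their photoperiod differences were 0.07 ± 0.54 and 0.05 ± 0.37 and were not called (adjusted p = 0.951 and 0.944).

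**Figure D5:**
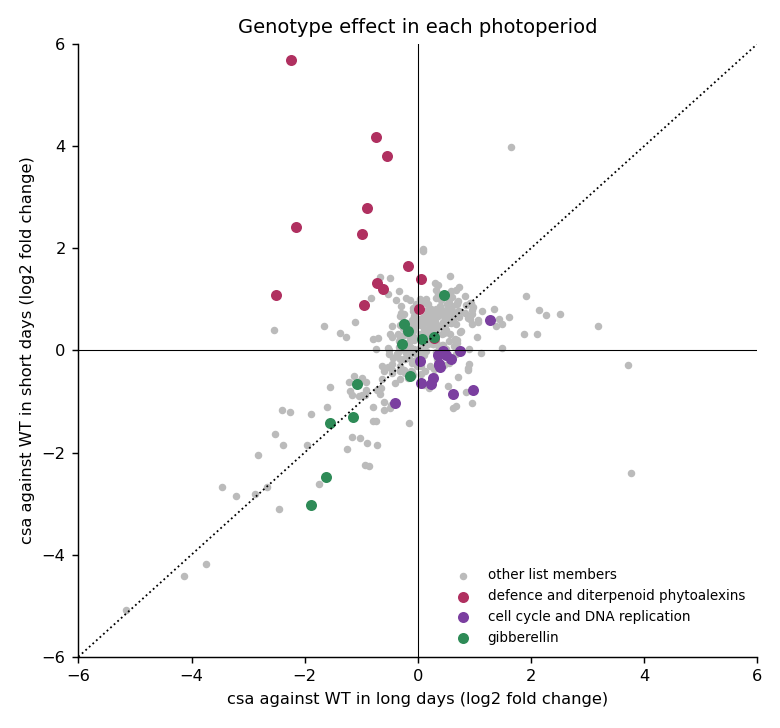
Log2 fold change of csa over WT anthers under short days (vertical axis) against that under long days (horizontal axis) for the tested list members, with 3 lists coloured; points on the dotted diagonal changed equally in both photoperiods, and 4 members lie outside the axes. Defence genes lie mostly above the diagonal and cell cycle genes mostly below it.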

How the data were processed

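RNA of rice anthers was sequenced, and the authors deposited raw read counts per gene for all 16 anther libraries in 1 table (55986 identifiers, 38063 with any count), with a like table for flag leaves, of which only the long-day WT libraries at 16:00 and 04:00 were used, to class genes. No source used here names the aligner, counting program, genome build, annotation or strand setting, so that overlapping or antisense genes and near-identical copies may share reads. Library totals lay between 18.05 M and 25.96 M counts. Without molecular identifiers reads may repeat a molecule, so intervals and floors are for counting error alone. No sequence or coordinate is given.

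Counts were fitted in R 4.3.3 with edgeR 4.0.16 over 8 groups of 2 anther libraries, after filterByExpr (25203 genes) and TMM scaling (factors 0.93 to 1.05). Quasi-likelihood F-tests were applied to csa minus WT in short days (both times, 16:00, 04:00), to the difference between the times, and to that between the photoperiods. The Benjamini-Hochberg adjustment ran over all genes tested in a contrast, with a threshold of 0.05. SE is the log2 fold change over the root of F. Long-day WT anthers and leaves set the tissue classes (pseudocount 0.1 CPM).

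The members and the gene lists were chosen with earlier results of these data known. The 26 lists held 574 genes written from memory, and 413 were kept because the symbol lay in the reference (ASM3414082v1, which holds 0 of the table's identifiers) on the right chromosome and in order; 412 were in the table and 381 tested. Names of the leaf-like and late pollen markers rest on memory alone. Per list, up to 4 genes of lowest p with at least 5 CPM in the higher genotype could be named, plus up to 2 for time and 2 for photoperiod. The text takes 45 of these. It adds a few symbol-less identifiers with the largest folds among those left after identifiers of an earlier report on these data were set aside. Replicate numbers did not pair libraries (r of replicate differences −0.129 to 0.241 over 6 pairs of short-day groups, 1 above 0.1). In no group were the 2 replicates duplicates (chi-square per gene at least 6.928), and libraries of different groups were not compared in this way. The steps were tested on simulated data. Alternatives were DESeq2 1.42.0, RLE scaling, no filter, short-day libraries only, a replicate block, a minimum fold of 1.5, 2-fold tissue classes and each library left out.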

Additional observations from a re-analysis of the deposited data

Results flagged for a closer look

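Of 112 groups of 4 libraries checked for a single library far from the other 3 (Dixon's test, which chance passes in about 1 in 20 groups), 3 had one. HAK1 stood at 129 CPM in WT 16:00 replicate 2, with the other WT libraries close together below it. LOC_Os01g05510 was at 0.0371 CPM in WT 04:00 replicate 1 and LOC_Os01g05530 at 0.263 CPM in WT 04:00 replicate 2, each with 0 in the other 3 WT libraries.

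The genotype difference was not the same at both times for 16 named genes (log2 fold change at 16:00 minus that at 04:00, edgeR's test of the difference). It was negative for GID1 (−1.69), EUI1 (−1.97), SLR1 (−1.96), IAA1 (−2.72), D14 (−2.59), PIP2-7 (−1.71), SIP1-1 (−1.92), TIP4-1 (−1.32), AMT1-1 (−2.53), CATA (−2.07), HSP16.9B (−3.29), PR10A (−3.01), MADS16 (−1.12) and NAC6 (−2.12). It was positive for CESA5 (1.67) and MER3 (1.62). The genotype difference was not the same in both photoperiods for 8 named genes (short days minus long days). It was positive for D2 (1.5), HAK1 (1.02), CATA (1.63), NPR1 (1.33), CPS4 (4.36) and PR10A (1.81), and negative for EXPB9 (−5.66) and CDKB2-1 (−1.49).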

How the results depend on the processing

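Short-day calls stayed within 1.5 times of 6510 higher and 5457 lower under 5 settings: DESeq2 (5727 and 5860), RLE scaling (5818 and 5872), no filter on low counts (5635 and 6103), short-day libraries only (5394 and 5772) and the replicate block (6217 and 5303). With the replicate block the time difference was positive for 4322 and negative for 3891 genes, the photoperiod difference for 1661 and 2101, and 147 list members rose and 82 fell. Replicate numbers did not pair the libraries, so the block carries no design. Against a minimum fold of 1.5, 900 genes rose and 2137 fell, as did 32 and 37 list members; by tissue class, 273 and 1615 anther-leaning, 434 and 501 shared and 193 and 21 leaf-leaning genes. With 2-fold tissue classes 2274 anther-leaning genes rose; 2594 shared genes rose and 1581 fell, and 1642 leaf-leaning genes rose and 220 fell, since the classes then hold other numbers of genes.

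With 1 library left out, short-day rises numbered 4389 to 6701 and falls 4446 to 5953, list members 113 to 155 and 73 to 86, and shared-class rises 2550 to 3936. At 16:00 rises numbered 2885 to 5826, and at 04:00 3100 to 5411 with falls of 2599 to 5379. Positive time differences numbered 2733 to 4869, positive photoperiod differences 1016 to 2100 and negative ones 1138 to 2712. Of 259 results of single named genes, 6 lost their call with DESeq2, 8 with RLE scaling, 15 without a filter, 14 with the replicate block and 11 of 198 with short-day libraries only; 61 of 119 did against a minimum fold of 1.5, and with each library left out in turn 382 of 4144 values lost the call, from 65 results. None reversed under these settings.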
